A study of Nannochloropsis oceanica with 6 samples.

Results

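The plastid genome of the marine alga Nannochloropsis oceanica carries genes for protein folding and proteolysis, and 3 of these had enough reads to be followed: dnaK, ftsH and clpC-II. They were taken by name from the 10493 genes of the deposited tables, where 125 genes are plastid genes (IDs cp-dnaK, cp-ftsH and cp-clpC-II). The names were chosen with earlier results of these data known, for a chaperone and a membrane protease that differed from wild type (WT) in opposite directions. Those directions are therefore given as a description. The study compared 2 lines labelled NoPAC4 knockout with WT, all in strain IMET1 under low light. There were 2 libraries of polyadenylated RNA from knockout line 1, 2 from knockout line 2 and 2 from WT. All 6 libraries shared the culture conditions, which were 5 days of continuous light at 50 µmol photons per square metre per second. The temperature is given as 23 °C for the treatment and as 25 °C for growth. The labels state neither how the lines were made, nor whether each descends from a single clone, nor whether replicates were separate cultures. The p-values below therefore measure only the spread between these libraries, which may be technical.

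DnaK is the Hsp70 chaperone of bacteria and plastids, which binds unfolded stretches of proteins and releases them in cycles of ATP hydrolysis. FtsH is a membrane-anchored ATP-dependent metalloprotease, known in plants and cyanobacteria for clearing damaged D1 protein (the psbA product) from photosystem II in the thylakoid membrane. ClpC is an Hsp100 unfoldase that threads substrates into the chamber of the soluble Clp protease.

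The libraries held 13956854 to 16311239 reads, and only 1380 to 2430 of these lay in plastid genes. Plastid transcripts are mostly not polyadenylated, so the values below describe the part of them that entered polyadenylated libraries. The 3 genes together had 103 to 336 reads per library, and every one of their deposited counts was a whole number (tolerance 1e-06). Knockout line 1 replicate 2 stood apart through psbA, with 1227 reads there against 330 to 604 in the other libraries. NoPAC4 itself was not analysed here, because nuclear IDs are not paired with names in the files.

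The chaperone gene dnaK was lower in the knockout libraries than in WT, but the difference did not pass the test. Its level was 8.52 and 7.24 CPM in knockout line 1, 4.13 and 7.98 CPM in knockout line 2, and 17.4 and 10.5 CPM in WT (CPM are reads per 1e+06 reads after scaling the libraries to each other). All 4 knockout libraries lay below both WT libraries, yet the WT libraries were farther from each other than WT replicate 2 was from knockout line 1. It averaged 6.97 ± 1.96 CPM over the knockout libraries (SD, n = 4) against 14.0 ± 4.90 CPM over the WT libraries (SD, n = 2), and the fitted log2 change was -1.02 ± 0.30 (SE). The 95% interval ran from -1.75 to -0.29, or 0.297 to 0.819 times the WT level (edgeR quasi-likelihood unadjusted p = 0.0138, adjusted p = 0.179 over 9712 genes).

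In bulk RNA from a culture, fewer cells with the transcript and less of it per cell cannot be told apart. The size of the difference rested on which WT library was used. Without WT replicate 1 the log2 change was -0.61 (edgeR adjusted p = 0.148), and without WT replicate 2 it was -1.36 and was called (edgeR adjusted p = 0.0225). The background was 5.22% of genes called in the latter fit and 29.1% in the former. DESeq2 and the edgeR likelihood ratio test also called dnaK at -1.02 (DESeq2 adjusted p = 0.0443, edgeR adjusted p = 0.0235), where 5.74 and 6.94% of all tested genes were called.

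**Figure D1:**
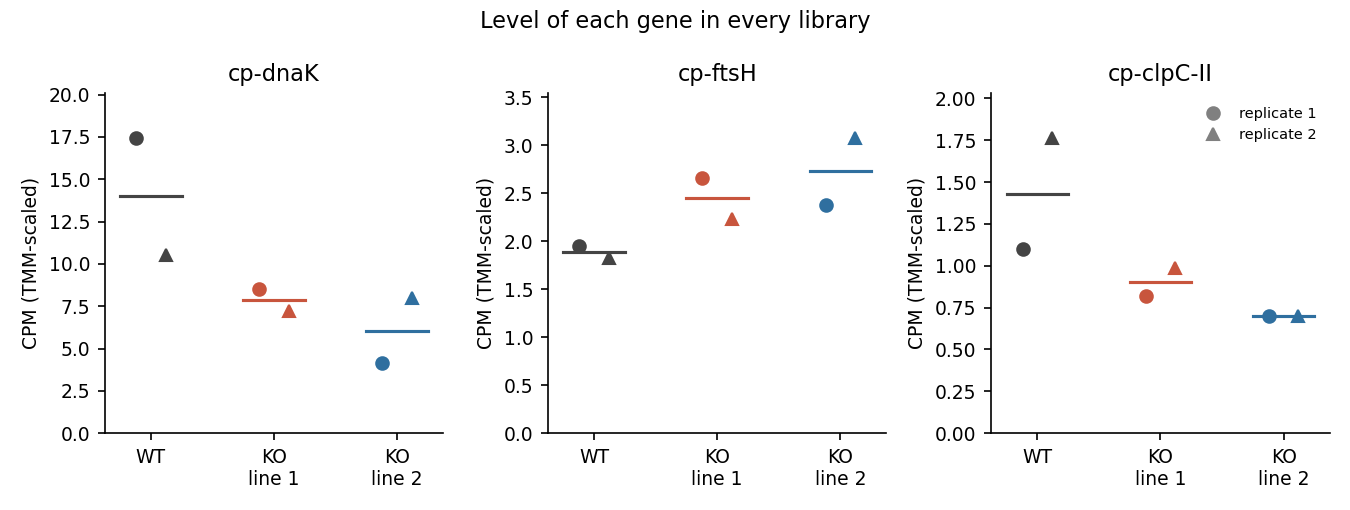
TMM-scaled reads per 1e+06 reads (CPM, vertical axis from 0) of dnaK, ftsH and clpC-II in each of the 6 libraries, with circles for replicate 1, triangles for replicate 2 and bars for group means. The dnaK and clpC-II values of all 4 knockout libraries lie below WT and those of ftsH above, while dnaK spans 10.5 to 17.4 CPM within WT.

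The dnaK replicates also disagreed in knockout line 2. The higher library exceeded the lower by 1.93-fold there, by 1.66-fold in WT and by 1.18-fold in knockout line 1. Ratios of the replicates were also taken for the 25 tested plastid genes on the log2 scale, after adding 0.5 CPM to each value. For dnaK that log2 ratio ranked 1 in size in knockout line 2, 3 in WT and 16 in knockout line 1. The addition shrinks the ratios of weaker genes, so these ranks partly follow level. Without it atpA differed more than dnaK in knockout line 2 (0.490 and 1.05 CPM), and rps2 in WT (1.34 and 0.719 CPM). By comparison, the median size of that log2 ratio over the 25 genes was 0.28 in knockout line 2, 0.33 in WT and 0.31 in knockout line 1. The reads behind these values were 59 and 114 in knockout line 2, with exact Poisson 95% intervals of 44.9 to 76.1 and 94.0 to 137. In WT they were 286 and 161, with intervals of 254 to 321 and 137 to 188. These intervals, which cover counting error only, do not meet within either pair.

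The membrane protease gene ftsH was higher in every knockout library than in WT, by a margin that did not pass the test. Its level was 2.66 and 2.24 CPM in knockout line 1, 2.38 and 3.08 CPM in knockout line 2, and 1.95 and 1.83 CPM in WT. The groups did not overlap, and its replicates differed by at most 1.29-fold, in knockout line 2. Its average was 2.59 ± 0.37 CPM over the knockout libraries (SD, n = 4) against 1.89 ± 0.087 CPM over the WT libraries (SD, n = 2). The fitted log2 change was 0.45 ± 0.26 (SE). The 95% interval ran from -0.19 to 1.08, or 0.879 to 2.12 times the WT level (edgeR unadjusted p = 0.137, adjusted p = 0.529). These levels rest on few reads, 39 and 34 in knockout line 1, 34 and 44 in knockout line 2, and 32 and 28 in WT. The exact Poisson intervals of the lowest and highest of these, 18.6 to 40.5 and 32.0 to 59.1 reads, overlap.

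The clpC-II entry, listed apart from the clpC-I entries, had the fewest reads of the 3 and, like dnaK, was lower in the knockout libraries. Its level was 0.818 and 0.987 CPM in knockout line 1, 0.6998 and 0.6999 CPM in knockout line 2, and 1.10 and 1.76 CPM in WT. The highest knockout library and the lowest WT library were close, although the groups did not overlap. The averages were 0.801 ± 0.136 CPM (SD, n = 4, knockout) and 1.43 ± 0.47 CPM (SD, n = 2, WT), with a fitted log2 change of -0.84 ± 0.37 (SE). The 95% interval ran from -1.73 to 0.056 (edgeR unadjusted p = 0.0621, adjusted p = 0.386). The reads were 12, 15, 10 and 10 in the knockout libraries and 18 and 27 in WT, and the Poisson interval of 18 reads, 10.7 to 28.4, takes in the values 12 and 15. Here WT replicate 2 was the high library, whereas for dnaK it was WT replicate 1. Without WT replicate 1 the log2 change of clpC-II was -1.14 and without WT replicate 2 it was -0.48 (edgeR adjusted p = 0.119 and 0.683).

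In the comparison of both lines with WT, edgeR quasi-likelihood called 0 of the 3 genes, against a background of 0.165% of 9712 tested genes, and limma-voom also called 0, against 0.185%. At an unadjusted p below 0.05 there was 1 of the 3, dnaK, against a background of 14.4%. For groups that do not overlap, 2 of the 3 had all knockout libraries below WT, against 12.8% of all tested genes and 12 of the 25 tested plastid genes. The third, ftsH, had all of them above WT, against 10.6% of all tested genes and 2 of the 25 plastid genes. As the 3 names were chosen with these directions known, nothing is read from these counts.

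Taken line by line, the values of all 3 genes pointed the same way in both lines, which share the WT libraries. For dnaK the log2 change against WT was -0.83 ± 0.36 in line 1 and -1.21 ± 0.37 in line 2 (SE, edgeR adjusted p = 0.383 and 0.247). For ftsH it was 0.37 ± 0.30 and 0.53 ± 0.30 (SE, edgeR adjusted p = 0.596 and 0.623), and for clpC-II it was -0.65 ± 0.43 and -1.02 ± 0.45 (SE, edgeR adjusted p = 0.534 and 0.469). In line 1 the calls among the 3 genes numbered 0 in edgeR quasi-likelihood (background 0.134% of tested genes), limma-voom (0.196%), DESeq2 (4.15%) or the edgeR likelihood ratio test (4.99%). In line 2, 0 of the 3 were called by the first 3 of these (0.0412, 0.0412 and 3.85%). At an unadjusted p below 0.05 edgeR had 0 of the 3 in line 1, where the background was 13.6%, and 1, dnaK, in line 2, where it was 11.8%. The likelihood ratio test called dnaK in line 2 (edgeR adjusted p = 0.0400, background 4.49%), as did the quasi-likelihood test without WT replicate 2 (-1.54, edgeR adjusted p = 0.0240, background 6.8%). Without WT replicate 1 the line 2 value was -0.80 and without knockout line 2 replicate 1 it was -0.81 (edgeR adjusted p = 0.129 and 0.999), and without knockout line 2 replicate 2 it was -1.76 (edgeR adjusted p = 0.297). In line 1 the dnaK value was -0.42 when WT replicate 1 was left out and -1.17 when WT replicate 2 was. For clpC-II the line 1 values without WT replicates 1 and 2 were -0.96 and -0.30 and the line 2 values -1.32 and -0.66. For ftsH the line 1 value was 0.24 without knockout line 1 replicate 1 and the line 2 value 0.33 without knockout line 2 replicate 2.

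A direct comparison of the lines found no difference that passed the test for any of the 3. The log2 difference of line 1 against line 2 was 0.38 for dnaK (95% interval -0.53 to 1.29), -0.16 for ftsH (-0.86 to 0.55) and 0.36 for clpC-II (-0.79 to 1.52), with edgeR adjusted p of 0.914, 0.929 and 0.916. At an unadjusted p below 0.05 there were 0 of the 3, against a background of 3.75%. By adjusted p there were 0 of the 3 with edgeR quasi-likelihood, limma-voom, DESeq2 and the likelihood ratio test, against backgrounds of 0, 0, 0.175 and 0.237%. For dnaK the difference turned on a single library, at -0.038 without knockout line 2 replicate 1 and 0.92 without knockout line 2 replicate 2. The corresponding values for ftsH were -0.35 and 0.033. The intervals are wide enough to hold a 2-fold difference between the lines for dnaK and clpC-II.

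**Figure D2:**
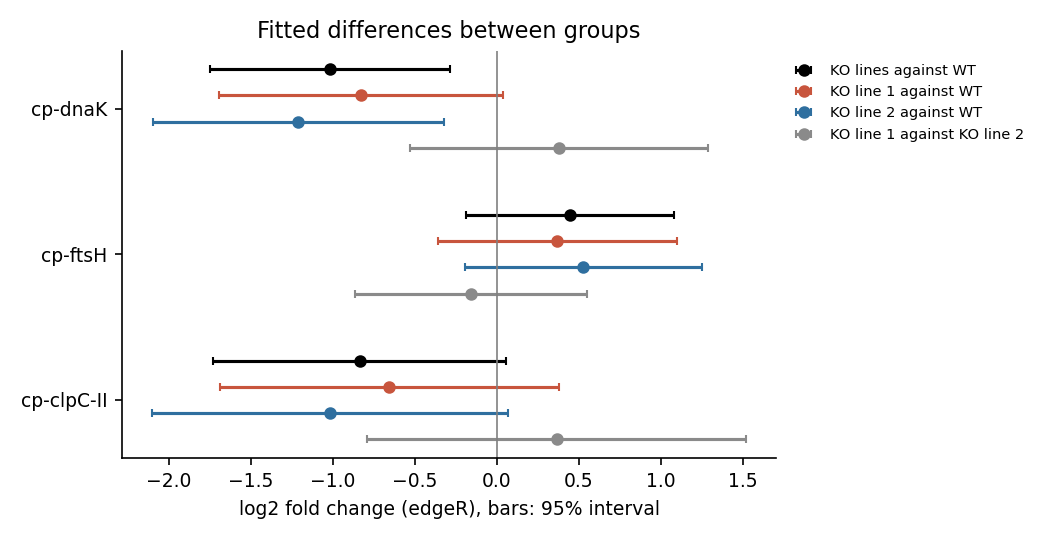
Log2 fold change (horizontal axis) of each gene in the 4 comparisons, with points for the edgeR estimate and bars for its 95% interval. For dnaK the intervals of both lines together (-1.75 to -0.29) and of line 2 alone lie below 0, while every interval of ftsH and clpC-II includes 0.

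Per unit of length, dnaK was the most abundant of the 3 in every library. In TPM, which scale reads by gene length, its level was 9.24 and 7.85 in knockout line 1, 4.56 and 8.52 in knockout line 2, and 19.1 and 10.7 in WT. It ranked 7 of 125 plastid genes by mean TPM over the libraries, with 6 in WT and 7 in each line. The TPM of ftsH were 2.42 and 2.04, 2.21 and 2.76, and 1.80 and 1.57 in the same order, and those of clpC-II 1.57 and 1.89, 1.37 and 1.31, and 2.11 and 3.18. In TPM both WT libraries had more clpC-II than ftsH, and in all 4 knockout libraries ftsH was the higher of the pair. This order holds per unit of length only. In reads ftsH exceeded clpC-II in every library, at 32 against 18 and 28 against 27 in WT. With so few reads, whether the order in TPM exceeds counting error was not tested. By mean TPM ftsH ranked 37 in WT, 25 in line 1 and 22 in line 2, whereas clpC-II ranked 23, 31 and 35. Only 25 of the 125 plastid genes passed the filter on low counts, so ranks this far down depend on genes with few reads. In WT petB, which did not pass, had 2.45 TPM from 17 reads, against 1.68 TPM from 60 reads for ftsH. Nothing is therefore read from these shifts in rank. In CPM, which is not scaled by length, all 3 lay low among the tested genes of these polyadenylated libraries. Of all tested genes, nuclear and organelle, 14.0% had a lower mean CPM than dnaK, 4.56% a lower one than ftsH and 1.86% a lower one than clpC-II.

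The balance between chaperone and membrane protease, read as the TPM ratio of dnaK to ftsH within a library, was lower in the knockout libraries. The ratio was 3.82 and 3.85 in knockout line 1, 2.07 and 3.08 in knockout line 2, and 10.6 and 6.85 in WT. Its mean was 3.21 ± 0.84 in the knockout libraries (SD, n = 4) and 8.74 ± 2.67 in WT (SD, n = 2). The TPM ratio of ftsH to clpC-II was 1.58 ± 0.42 in the knockout libraries (SD, n = 4) and 0.673 ± 0.255 in WT (SD, n = 2), also without overlap. The ratio of dnaK to clpC-II, both lower in the knockout libraries, ran from 3.33 to 6.49 there and was 9.07 and 3.37 in WT, so that the groups overlapped. These ratios follow from the directions for which the genes were chosen and carry no test.

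Set against plastid reads, dnaK overlapped WT under each of 3 totals, while for ftsH and clpC-II the overlap depended on the total. This scale does not depend on nuclear transcripts, and psbA was left out of the first total because of its reads in a single library. That total was 995 to 1203 reads in the knockout libraries and 1458 to 1514 in WT. Of the 25 tested plastid genes 18 had a log2 change below 0, with a median of -0.59. A gene with unchanged CPM thus has a higher share of this total in the knockout libraries. A higher share is therefore not separate support for a higher level. The share of dnaK was 11.9 and 9.14% in knockout line 1, 5.93 and 10.0% in knockout line 2, and 18.9 and 11.04% in WT. Knockout line 1 replicate 1 thus lay above WT replicate 2, which had an exact Clopper-Pearson 95% interval of 9.48 to 12.8%.

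The share of ftsH was 3.71 and 2.83% in knockout line 1, 3.42 and 3.87% in knockout line 2, and 2.11 and 1.92% in WT. All knockout libraries lay above WT, although the Clopper-Pearson interval of the lowest of them, 1.97 to 3.93%, overlapped that of WT replicate 1, 1.45 to 2.97%. For clpC-II the share was 0.880 to 1.25% in the knockout libraries and 1.19 and 1.85% in WT, with overlap. The mean log2 share of the knockout libraries differed from that of WT by 0.77 for ftsH, -0.69 for dnaK and -0.49 for clpC-II. With psbA in the total these values were 0.47, -0.99 and -0.79, and with neither psbA nor the 3 genes themselves they were 0.69, -0.77 and -0.57. With psbA in the total ftsH overlapped WT, as its share was 1.40% in knockout line 1 replicate 2, 2.13 to 2.83% in the other knockout libraries, and 1.65 and 1.52% in WT. On that total clpC-II did not overlap, at 0.617 to 0.870% in the knockout libraries against 0.930 and 1.46% in WT. With neither psbA nor the 3 genes in the total, a choice made after the data were seen, both genes lay apart from WT. How many other plastid genes lie apart on these totals was not counted, so nothing is read from these separations. Per 100 other plastid reads there were then 3.26 to 4.55 reads of ftsH in the knockout libraries against 2.72 and 2.25 in WT, and 1.03 to 1.44 of clpC-II against 1.53 and 2.17.

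**Figure D3:**
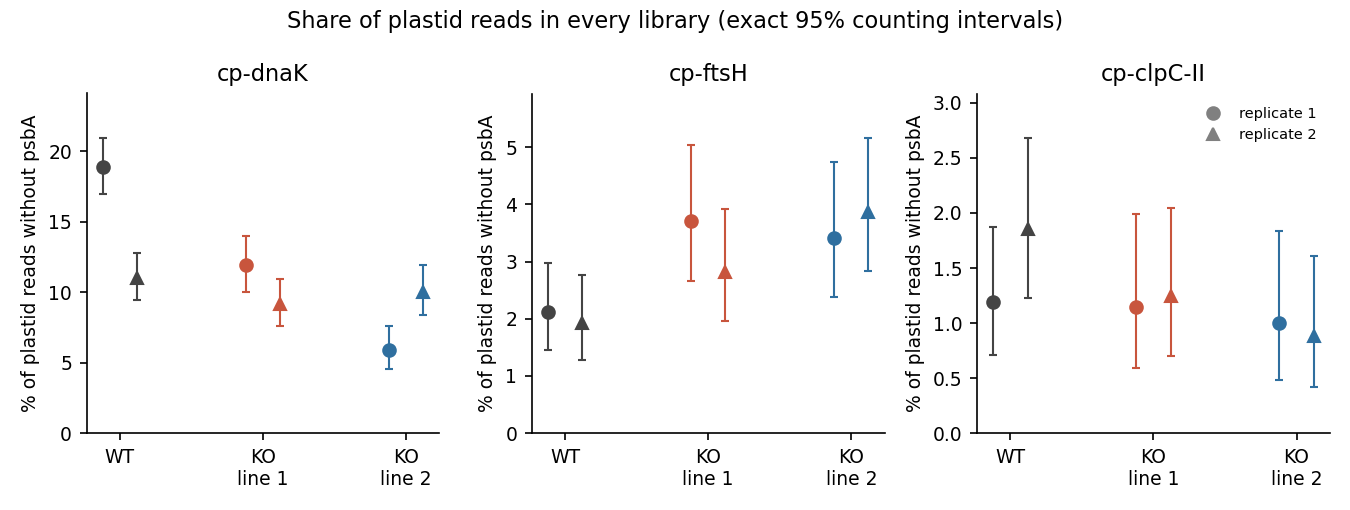
Share of plastid reads without psbA (percent, vertical axis from 0) for each gene and library, with exact Clopper-Pearson 95% intervals that cover counting error only. The ftsH shares of the knockout libraries, 2.83 to 3.87%, lie above the WT shares of 1.92 and 2.11%, while on this total those of dnaK and clpC-II overlap WT. The total itself was lower in the knockout libraries, so the share of a gene with unchanged CPM is higher there.

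Other plastid genes of folding and proteolysis had too few reads to test. Of 8 such genes in the table, dnaK, ftsH and clpC-II passed the filter on low counts, and 0 of these 3 were called higher or lower. Their median log2 change, -0.84, was the clpC-II value, while ftsH was at 0.45. The median was -0.59 for the 25 tested plastid genes and 0.0071 for all tested genes. These 3 are among the 25 and were chosen with their directions known, so nothing is read from their median. The chaperonin gene groEL, whose product forms a folding chamber, had 2, 1, 8 and 1 reads in the knockout libraries and 5 and 12 in WT. The gene cbbX, for a Rubisco activase of the red lineage of plastids, had 0, 7, 5 and 8 reads in the knockout libraries and 9 and 9 in WT. The other parts annotated as Clp genes had 0 reads in any library for clpA, 0 to 2 reads per library for clpC-I and 0 to 14 for the second clpC-I entry, whose highest value was in WT replicate 1. For groEL and both clpC-I entries the knockout and WT libraries overlapped, while for cbbX they overlapped in CPM but not in reads or TPM.

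Plastid genes for protein transport into or across membranes showed no difference that passed the test. Only secA, for the translocation motor, passed the filter among the 3 of this kind in the table. It had 44, 61, 43 and 62 reads in the knockout libraries and 38 and 69 in WT, which gave a log2 change of 0.078 with an SE of 0.34 (edgeR adjusted p = 0.944). The channel gene secY had 1 to 5 reads per library, and tatC, of the twin-arginine pathway, had 0, 3, 1 and 1 in the knockout libraries against 6 and 5 in WT. Both genes of iron-sulfur cluster assembly, sufC and ycf24, were too weak to test, with at most 3 reads in any library.

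The genes for the reaction centre proteins of photosystem II did not follow ftsH in all libraries. The level of psbA, which encodes the D1 substrate of FtsH, was 22.5, 80.7, 42.3 and 33.0 CPM in the knockout libraries and 25.7 and 25.3 CPM in WT, so the groups overlapped. Its log2 change, 0.79 with an SE of 0.47, did not pass (edgeR adjusted p = 0.530). For psbD, which encodes the D2 protein, it was -0.52 with an SE of 0.28 (edgeR adjusted p = 0.485), also with overlap.

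Most neighbours of the 3 genes in the plastid genome had few reads or 0. In the gene order of the RefSeq table for assembly ASM5162214v2, used here for names and order only, dnaK follows the ribosomal protein genes rpl4 and rpl3 and precedes ycf34 and psbD. The reads of rpl4 were 0, 0, 0 and 1 in the knockout libraries and 8 and 3 in WT. Those of rpl3 were 0, 2, 0 and 4 against 3 and 3, and ycf34 had none. The gene ftsH lies between cbbX and psaE, and clpC-II between sufC and psbY. Among the 2 genes nearest to ftsH on each side, psaE and psbH had 0 reads and petB had 13 reads in the knockout libraries together and 17 in WT. Beside clpC-II, psbY and ycf12 had 0 reads. Thus psbD was the only neighbour that passed the filter, and at 45, 35, 24 and 22 reads in the knockout libraries and 58 and 37 in WT it overlapped.

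**Figure D4:**
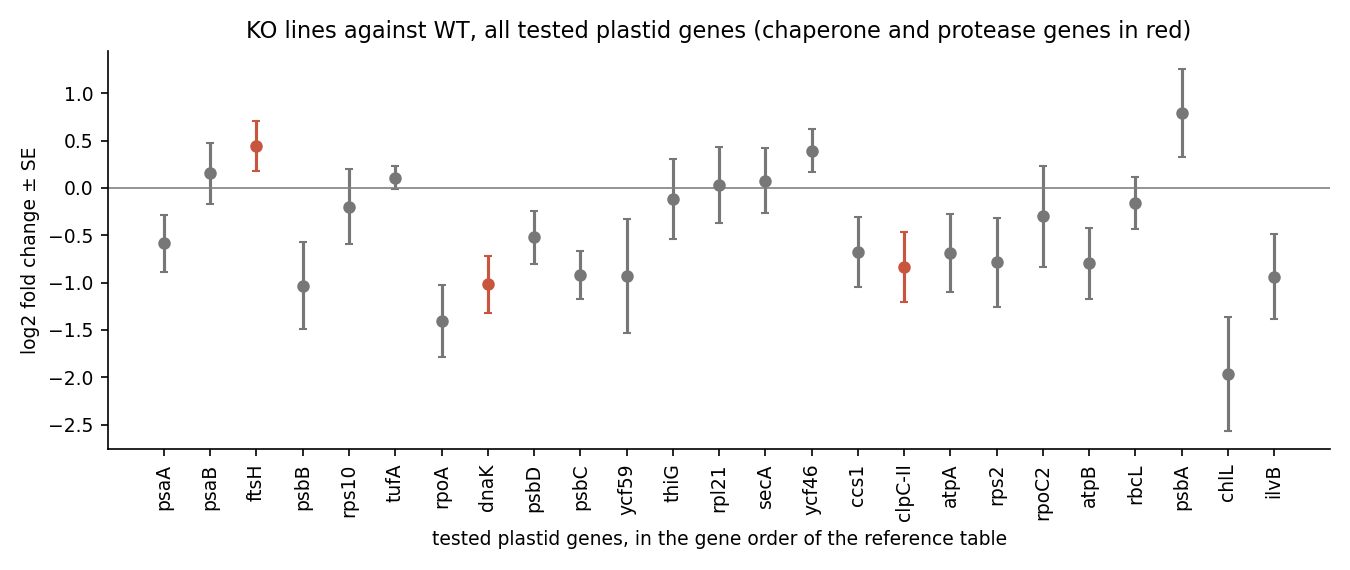
Log2 fold change of both knockout lines against WT (vertical axis, bars for SE) for the 25 tested plastid genes, placed in the gene order of the reference table. Of these genes 18 lie below 0 and 7 above, and ftsH at 0.45 is among the latter while dnaK at -1.02 and clpC-II at -0.84 are among the former.

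The genes most like dnaK across the 6 libraries, among 34 other tested organelle genes, were atpA and atpB, for ATP synthase subunits, and rps2, for a ribosomal protein. Likeness was Pearson's r of log2(CPM + 0.5), given as a description, since the points share libraries and depth. The values were 0.975 for atpA, 0.950 for rps2 and 0.810 for atpB, with Spearman's rho of 0.943, 0.943 and 0.829. Like dnaK, all 3 had their highest counts in WT replicate 1, at 25, 22 and 24 reads. They were chosen by r with dnaK, so nothing is read from this. Without the 2 libraries farthest from the dnaK median (WT replicate 1 and knockout line 2 replicate 1) r was 0.728, 0.666 and 0.340.

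For ftsH the nearest profiles were those of the mitochondrial ATP synthase gene atp6 (r = 0.784, rho = 0.829), the plastid gene ycf46 (r = 0.752, rho = 0.714) and the mitochondrial complex I gene nad11 (r = 0.523, rho = 0.486). Of these, ycf46 was the tested plastid gene other than ftsH whose CPM lay above WT in all knockout libraries, from 59, 65, 60 and 74 reads against 47 and 59. Its fitted change was 0.39 on the log2 scale, with an SE of 0.23 (edgeR adjusted p = 0.521). The reads of atp6 were 14, 13, 5 and 16 in the knockout libraries and 9 and 2 in WT. Those of nad11 were 12, 6, 5 and 9 against 13 and 1, so both were near the floor in WT replicate 2. Without knockout line 2 replicate 2 and WT replicate 2, r was 0.362 for atp6, 0.741 for ycf46 and -0.034 for nad11. As all were chosen by r with ftsH, nothing is read from their directions.

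For clpC-II the nearest were psbC, for the CP43 antenna protein (r = 0.885, rho = 0.657), rpoA, for a subunit of the plastid RNA polymerase (r = 0.885, rho = 0.943), and chlL, for a subunit of light-independent protochlorophyllide reductase (r = 0.862, rho = 0.600). All had every knockout library below WT, as had 12 of the 25 tested plastid genes and 12.8% of all tested genes in CPM. The genes psbC, rpoA and chlL were chosen by r with clpC-II, itself below WT, so nothing is read from their direction. Reads were 30 to 46 against 74 and 89 for psbC, 6 to 11 against 23 and 23 for rpoA, and 1 to 5 against 12 and 18 for chlL. Without knockout line 2 replicate 1 and WT replicate 2, r was 0.953, 0.835 and 0.792. Within the group, dnaK and clpC-II had r = 0.545, dnaK and ftsH -0.45, and ftsH and clpC-II -0.83, the lowest of the 34 values for clpC-II. The directions for which the genes were chosen enter these last values.

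**Figure D5:**
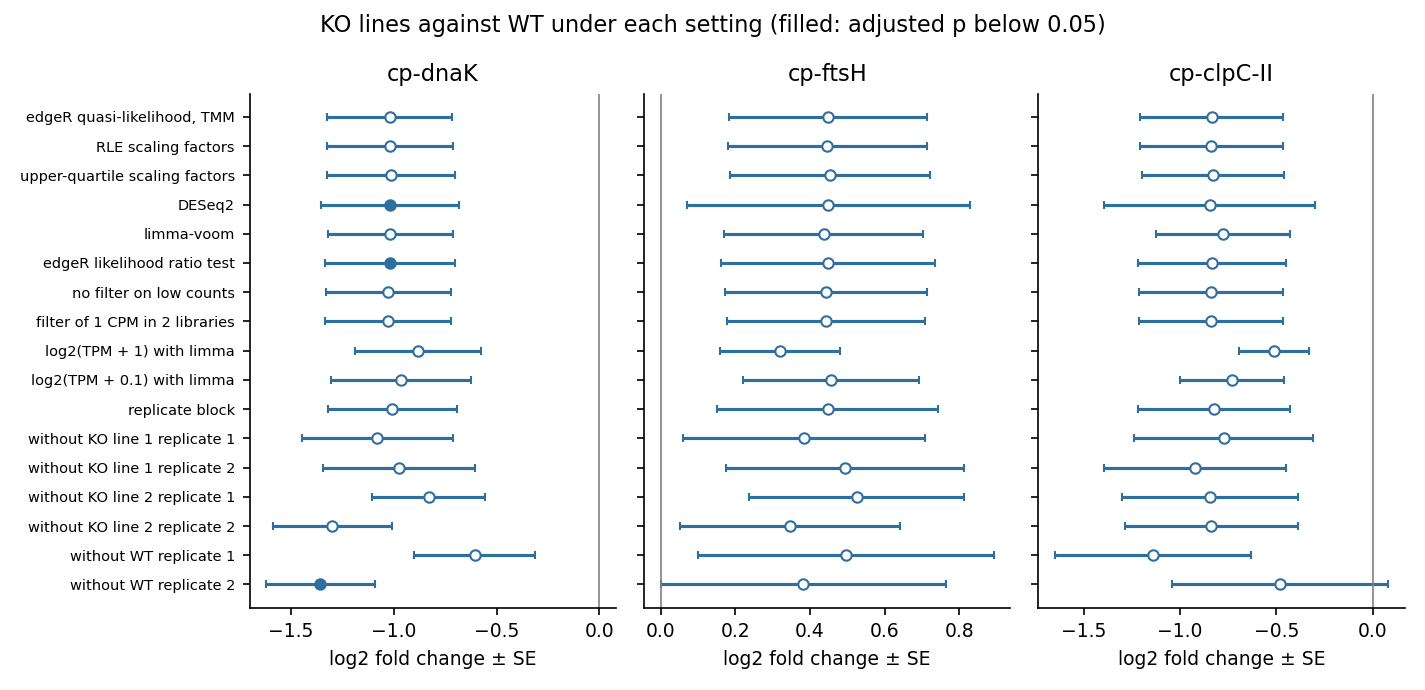
Log2 fold change of both knockout lines against WT (horizontal axis, bars for SE) for each gene under each way of processing, with filled points where the adjusted p was below 0.05. Points are filled for dnaK alone, with DESeq2, with the edgeR likelihood ratio test and without WT replicate 2, and no point of any gene crosses 0.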

How the data were processed

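Expected counts per gene were deposited for the 6 libraries (20.1% of values not whole, tolerance 1e-06), and so were TPM, each column of which sums to 1e+06. STAR and edgeR appear in the submitters' processing notes without versions. The program that counted the reads, the genome build and the annotation are not given in the sources used here. Per the labels' protocols the library kit is one that does not keep strand, so antisense reads cannot be told apart. Groups and replicate numbers came from the titles; the descriptions number the replicates otherwise.

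Counts were rounded and tested with edgeR 4.0.16 (R 4.3.3; robust quasi-likelihood, TMM factors, default group filter, 9712 genes tested). All 3 groups were in 1 model with 3 residual degrees of freedom. The call was an adjusted p below 0.05 (Benjamini-Hochberg, over all tested genes). SE and 95% intervals come from the test statistic. Alternatives used DESeq2 1.42.0 and limma 3.58.1. Code was tested on simulated data. Members, gene lists, neighbours and the 3 most alike organelle genes followed rules chosen with earlier results of these data known. All 160 organelle symbols matched the reference table. Protein and promoter sequences were not used here. The Poisson and Clopper-Pearson intervals cover counting error only.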

Additional observations from a re-analysis of the deposited data

How the results depend on the processing

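The log2 changes against WT of dnaK, ftsH and clpC-II kept their signs in all 16 alternatives run on both lines and on each line. For both lines, clpC-II and ftsH were called in none of them (adjusted p from 0.119 to 0.814 and from 0.376 to 0.909), and dnaK was called at -1.02 by DESeq2, at -1.02 by the edgeR likelihood ratio test and at -1.36 without WT replicate 2. Leaving out each library in turn gave -1.36 to -0.61 for dnaK, 0.35 to 0.53 for ftsH and -1.14 to -0.48 for clpC-II; where this left 1 library in a group, it was assumed to vary like the others. Between the lines the sign turned for dnaK without knockout line 2 replicate 1 (-0.038) and for ftsH without knockout line 2 replicate 2 (0.033), within ranges of -0.038 to 0.92 and -0.35 to 0.033. With psbA in the total, the log2 difference in share of plastid reads was 0.47 for ftsH and -0.79 for clpC-II; a total without the 3 genes was added after the data were seen.

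The number of genes called for both lines, 16, was 557 with DESeq2, 674 with the likelihood ratio test, 233 with no filter, 215 with a filter of 1 CPM in 2 libraries, 9 with log2(TPM + 1), 9 with log2(TPM + 0.1) and 337 with the replicate block, and 2 to 2848 without each library in turn. For line 1, 13 became 403 with DESeq2, 485 with the likelihood ratio test and 20 with the replicate block, and 2 to 3153 without each library. For line 2, 4 became 374, 436 and, with log2(TPM + 0.1), 9, and 1 to 1549 without each library. Between the lines, 0 became 17 with DESeq2, 23 with the likelihood ratio test, and 0 to 12 without each library. The cause of these changes was not tested.

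The replicate numbers in the titles were not taken to pair the libraries, since there are 2 numbers and the descriptions give others; deviations of same-numbered libraries correlated at 0.216, 0.553 and 0.400 between the groups. With the replicate block the log2 changes of dnaK, ftsH and clpC-II were -1.01, 0.45 and -0.82. None of the 3 was called (edgeR adjusted p = 0.164, 0.495 and 0.354), where 337 of the 9712 tested genes were. Few plastid reads, 1380 to 2430 per library, limit the precision of every value.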
